A study of Saccharomyces cerevisiae with 18 samples.

Results

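Deletion of HAC1 was examined across the transcriptome of yeast cells that produced insulin precursor (IP), a small secreted protein held together by disulfide bonds. The comparison rests on 6 of the 18 arrays of the series: the 3 titled for the HAC1 deletion with the IP vector (dI) and the 3 titled for wild type with the same vector (WI), each a separate bioreactor culture. All 5449 genes of Saccharomyces cerevisiae with a paired probe set were compared. The 6 strains of the series share the parent CEN.PK 113-5D, of genotype MATa SUC2 MAL2-8c ura3-52, and were sampled in mid-exponential growth. The deletion strains dI, dN and dA carry hac1::kanMX, and WI, WN and WA carry HAC1. Every strain holds the p426GPD vector with URA3 as its marker, a high-copy 2-micron plasmid: dI and WI with IP behind the TDH3 (GPD) promoter and a Yap3 pre and TA57 pro leader, dA and WA with α-amylase behind the same promoter and leader, and dN and WN with the empty vector. Each strain is 1 construct, so what the deletion did and what else may set that strain apart cannot be told apart.

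The unfolded protein response (UPR) of yeast works through 1 transcription factor, Hac1. When unfolded proteins build up in the endoplasmic reticulum (ER), the membrane kinase and nuclease Ire1 cuts an intron out of HAC1 mRNA, and the spliced mRNA is translated into the factor that switches on genes for chaperones, disulfide formation, glycosylation, vesicle traffic and the removal of misfolded proteins. A secreted protein such as IP enters the ER, folds and forms its disulfide bonds there, and leaves in COPII vesicles for the Golgi.

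Signals are log2 values on which 1 unit is a 2-fold difference, and a log2 fold change is the mean of the dI arrays minus that of the WI arrays, with the standard error (SE) from the model. A gene was called where its adjusted p (limma, Benjamini-Hochberg over the 5449 genes) was under 0.05. The background, taken as the 95th percentile of 5430 probe sets not paired with a gene of this yeast, was 4.39 to 4.59 depending on the array, and each of the 6 arrays had 4909 to 4971 genes above it. The spread in the test is shared by all 18 arrays. The dN replicate 3 array lay farthest from its strain mean, with a residual SD of 0.361, against 0.0784 to 0.114 in the 3 dI arrays and 0.0897 to 0.131 in the 3 WI arrays. The other dN arrays had 0.155 and 0.25. Counts given for dN against WN rest on these arrays and were not repeated without any of them. The arrays measure the RNA of a whole culture, so a lower signal in every cell and a missing signal in some cells cannot be told apart.

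HAC1 itself (YFL031W, chromosome VI) checked the labels. Its log2 signal was 1.27, 1.09 and 1.13 in dI, against 10.76, 10.84 and 10.75 in WI. All 3 dI arrays were below background, so the difference is at least 74.05-fold (adjusted p = 1.21e-16). A reporter control of the array separated the strains too, and has no gene name in the annotation table. It read 11.19, 11.14 and 11.08 in dI, against 0.58, 0.72 and 0.82 in WI. In the other deletion strains it lay between 11.07 and 11.31, and in the other wild-type strains between 0.73 and 1.19. This control is shown out of many because of that separation. What it detects is not stated, so it does not check the labels. IRE1 had 6.06, 6.10 and 6.11 in dI, against 6.05, 5.97 and 6.01 in WI, and did not pass the test (0.08, adjusted p = 0.594). Of the 2 genes on either side of HAC1, AGX1, an aminotransferase gene next to it, had a log2 fold change of 0.79 (SE 0.25, adjusted p = 0.0357), a call that was lost without any 1 of the 6 arrays (adjusted p 0.0513 without dI replicate 2 to 0.14 without dI replicate 3). RIM15, MIL1 and CAK1 had 0.35, 0.11 and -0.34 and were not called. By chromosome the median change ran from 0.01 on chromosome I to 0.05 on chromosome XVI.

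Of the 5449 genes, 1103 (20.2%) were called: 516 were higher in dI (9.47%) and 587 were lower (10.8%). The falls were larger than the rises. The median log2 fold change was -0.50 among genes called lower and 0.37 among genes called higher. At least 2-fold, 95 genes were lower and 24 higher, and at least 4-fold, 20 were lower and 2 higher. The 3 dI arrays lay above all 3 WI arrays in 27.2% of genes and below them in 18.8%. Calls were spread over the range of signals, with 17.5% of the genes called in the dimmest of 4 equal bins and 22.2% in the brightest. The number higher was the less firm: it was 888 when dN replicate 3 was left out of the shared spread, 299 without WI replicate 1, 302 without dI replicate 3 and 311 without WI replicate 3. The number lower stayed between 443 and 490 without any 1 of the 6 arrays.

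**Figure D1:**
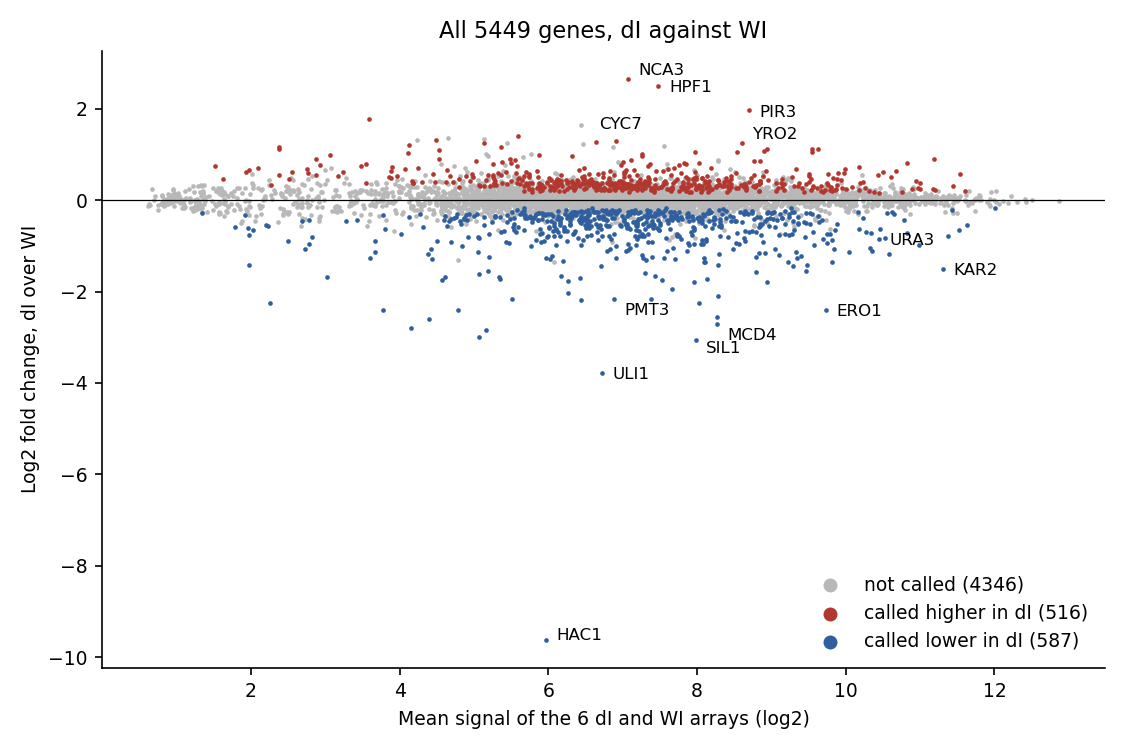
Log2 fold change of dI over WI against the mean log2 signal of the 6 arrays, 1 point per gene, with 516 genes called higher in red, 587 called lower in blue and 4346 not called in grey. HAC1 lies far below all others at -9.62, followed by ULI1 at -3.78 and SIL1 at -3.06, and the largest rises are those of NCA3 at 2.65 and HPF1 at 2.50.

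After HAC1, the largest fall was in ULI1, a UPR target of unknown function, with 4.79, 4.84 and 4.86 in dI, against 8.56, 8.68 and 8.60 in WI (-3.78, SE 0.11, adjusted p = 2.34e-12). The SIL1 gene, whose product exchanges nucleotide on the ER Hsp70, had 6.37, 6.49 and 6.49 in dI, against 9.64, 9.43 and 9.48 in WI (-3.06, SE 0.10, adjusted p = 1.68e-11). In neither gene did any dI array come near a WI array. MCD4, a transferase gene of glycosylphosphatidylinositol (GPI) anchor synthesis, had 6.87, 7.13 and 6.77 in dI, against 9.70, 9.59 and 9.58 in WI (-2.70). YET2, which encodes an ER membrane protein, had a change of -2.56. Some of the largest falls ended below the background. DOG1, a gene for a 2-deoxyglucose-6-phosphate phosphatase that has a close paralog, was at least 3.98-fold lower in dI. HOP1, which encodes a protein of meiotic chromosomes, was at least 4.03-fold lower, and FCY21, a gene of the purine and cytosine permease family, at least 1.97-fold lower. Among genes with only a systematic name, YOL155W-A was at least 2.66-fold, YDL114W at least 2.18-fold and YJR079W at least 1.32-fold lower. YBR200W-A was called lower but was below background in both strains, so no fold is given.

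Of 14 genes for chaperones of the ER lumen and their cofactors, 8 were called lower, none higher, and 6 did not pass, with a median of -1.25 where the median of all genes was 0.04. KAR2, the Hsp70 of the ER lumen and the main chaperone of that compartment, had 10.52, 10.67 and 10.47 in dI, against 12.12, 12.02 and 12.03 in WI. It was 2.84-fold lower in dI (-1.51, SE 0.08, adjusted p = 1.71e-09). Both of the nucleotide exchange factors that serve it fell, SIL1 as above and LHS1 by -2.10. Its Hsp40 partners JEM1 (-2.18), SCJ1 (-1.44) and ERJ5 (-1.31) were lower too, as were the prolyl isomerase gene FPR2 (-1.54) and KEG1 (-1.18), which has a role in cell wall glucan synthesis. The members that did not pass were CNE1, the calnexin gene (0.10, adjusted p = 0.509), the glucosidase genes CWH41 (-0.14) and ROT2 (0.03), the cyclophilin genes CPR5 (-0.14) and CPR2 (-0.08), and ROT1 (0.05). LHS1, SCJ1, FPR2, KEG1 and the members that did not pass are named after their values were seen, to account for the whole list. The count of 8 held without any 1 of the 6 arrays.

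The oxidase and isomerases that make disulfide bonds were lower in 6 of 7 genes, none was higher, and the list median was -0.74. ERO1, the oxidase that hands electrons from the isomerases to oxygen, had 8.57, 8.44 and 8.60 in dI, against 11.10, 10.86 and 10.86 in WI, a 5.29-fold fall (-2.40, SE 0.12, adjusted p = 1.71e-09). PDI1, the essential protein disulfide isomerase, had 11.19, 11.20 and 11.19 in dI, against 11.94, 11.79 and 11.82 in WI (-0.65, SE 0.10, adjusted p = 0.000169). MPD1 had 6.86, 7.02 and 6.84 in dI, against 9.26, 9.05 and 9.14 in WI (-2.24, SE 0.11, adjusted p = 8.67e-10). EUG1 had 6.19, 6.50 and 6.21 in dI, against 8.52, 8.42 and 8.44 in WI (-2.16, SE 0.12, adjusted p = 2.34e-09). MPD2 had 7.29, 7.48 and 7.30 in dI, against 8.25, 8.02 and 8.03 in WI (-0.74, SE 0.09, adjusted p = 3.48e-05). In each of these genes the 3 dI arrays lay below all 3 WI arrays. The change of EUG1 differed between vectors: it was -1.43 in dA against WA, and the difference between the changes was -0.73 (SE 0.16, adjusted p = 0.0356). No such difference was called for KAR2, ERO1, PDI1, MPD1 or MPD2, with values between -0.29 and 0.34 over both comparisons.

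**Figure D2:**
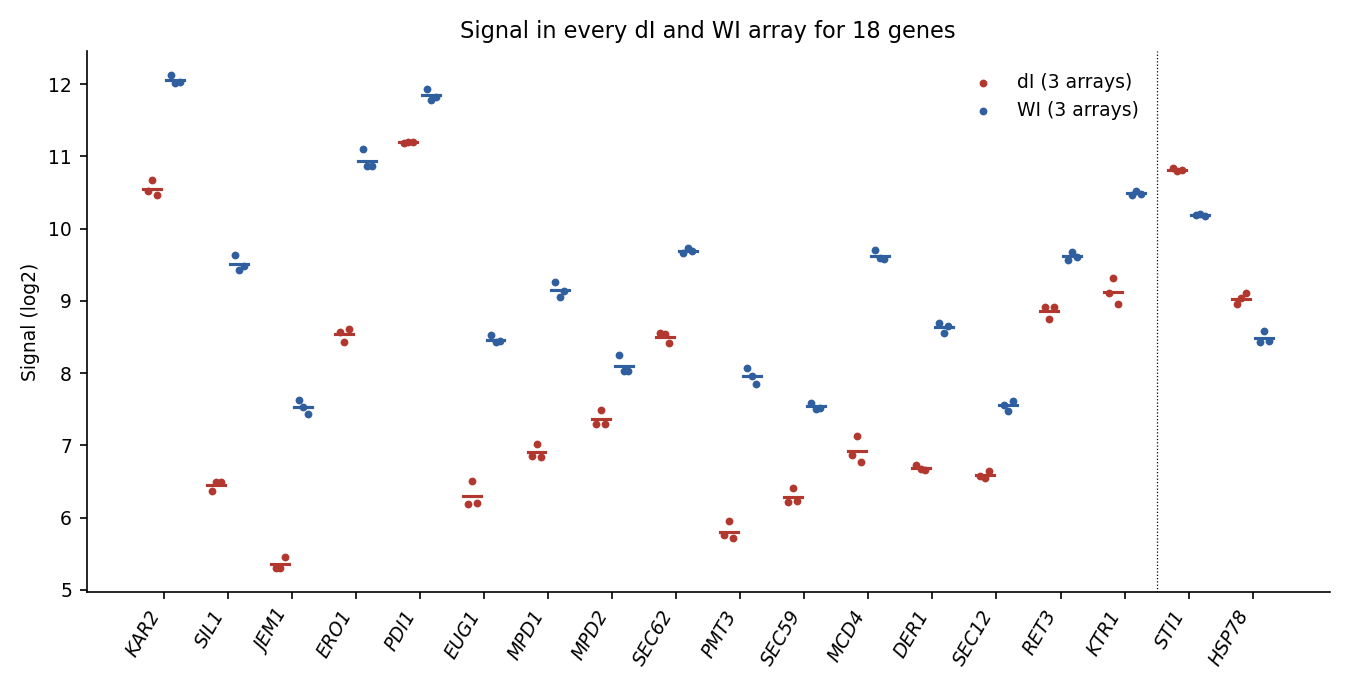
Log2 signal of 18 genes in each dI array (red, left) and each WI array (blue, right), with a bar at the strain mean. The 3 dI arrays lie below the 3 WI arrays in the 16 genes of the secretory route left of the dotted line and above them in the chaperone genes STI1 and HSP78 to its right.

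Of 21 genes for entry into the ER, by the translocation channel, signal recognition and signal peptide cleavage, 11 were called lower and none higher, with a median of -0.19. SEC62, SEC63 and SEC66, which encode parts of the complex that takes up finished chains after translation, had log2 fold changes of -1.19, -0.86 and -0.82, and SBH1, the small subunit of the Sec61 channel, had -0.73. In SEC62 the dI arrays had 8.55, 8.54 and 8.42, against 9.66, 9.74 and 9.69 in WI. Among the 7 protein O-mannosyltransferase genes, which place the first mannose on serine and threonine, 4 were lower and 3 did not pass. PMT3 had 5.75, 5.95 and 5.71 in dI, against 8.07, 7.96 and 7.85 in WI (-2.16, adjusted p = 1.68e-09), and PMT1, PMT5 and PMT2 had -1.35, -1.24 and -1.21.

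N-glycosylation was split. Of 27 genes, 11 were lower, none was higher and 16 did not pass, with a median of -0.14. The strongest falls were in SEC59, the dolichol kinase (-1.26, adjusted p = 2.7e-08), ALG12 (-1.11) and ALG6 (-0.76), which add sugars to the lipid-linked glycan, and DPM1, the dolichol phosphate mannose synthase (-1.07). WBP1, which encodes a subunit of oligosaccharyltransferase, is also covered by 3 control probe sets along its transcript, not used in the test. All 3 were lower in dI, by -0.47 at the start, -0.48 in the middle and -0.47 at the end, with no overlap between the strains. Of 30 genes of GPI anchor synthesis and attachment, 9 were lower and none higher. Next to MCD4 these were led by GWT1 (-0.94), the inositol acyltransferase, GPI16 (-0.61), a subunit of the GPI transamidase, and ARV1 (-0.59). The median of the GPI list was -0.15.

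In ER-associated degradation, which sends misfolded proteins to the proteasome, 6 of 20 genes were lower and 1 was higher, and the median of -0.05 lay near that of all genes. DER1, of the complex that moves substrates out of the ER, had 6.73, 6.67 and 6.65 in dI, against 8.69, 8.56 and 8.65 in WI (-1.95, SE 0.10, adjusted p = 1.57e-09). Its homolog DFM1 had -1.35, the ubiquitin ligase HRD1 -0.91 and the scaffold USA1 -0.87. Of 34 genes of the proteasome, which receives these substrates, and its activator, 2 were higher and none lower, with a median of 0.08, and 5 were higher when dN replicate 3 was left out.

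In transport from the ER to the Golgi and back, of 20 COPII genes 11 were lower and none higher (median -0.40), and of 21 genes of the COPI coat and the Arf GTPases 12 were lower and none higher (median -0.26). SFB2, a Sec24 homolog that takes up cargo, had -1.27 (adjusted p = 1.69e-07). SEC12, the exchange factor that starts coat assembly, had 6.57, 6.55 and 6.64 in dI, against 7.56, 7.48 and 7.61 in WI (-0.96). The GTPase it acts on, SAR1, had -0.72 and the SNARE gene BOS1 -0.70. On the return path, the coatomer genes RET3 and RET2 had -0.76 and -0.59, the GTPase gene ARF2 -0.65 and the retrieval receptor gene RER1 -0.46. Of 23 cargo receptor and p24 genes, 7 were lower and 1 was higher, with ERP2 at -1.14, ERV29 at -0.94, ERP1 at -0.85 and EMP24 at -0.75. Further on, 3 of 19 Golgi mannosyltransferase genes were lower (15.8%, against 10.8% of all genes) and none higher. KTR1 had -1.36 (adjusted p = 2.92e-08) and HOC1, of the mannan polymerase, -1.24 (adjusted p = 3.38e-08). MNN2 had -0.40 and lost its call without WI replicate 2 (adjusted p = 0.0534) or dI replicate 3 (adjusted p = 0.0574).

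**Figure D3:**
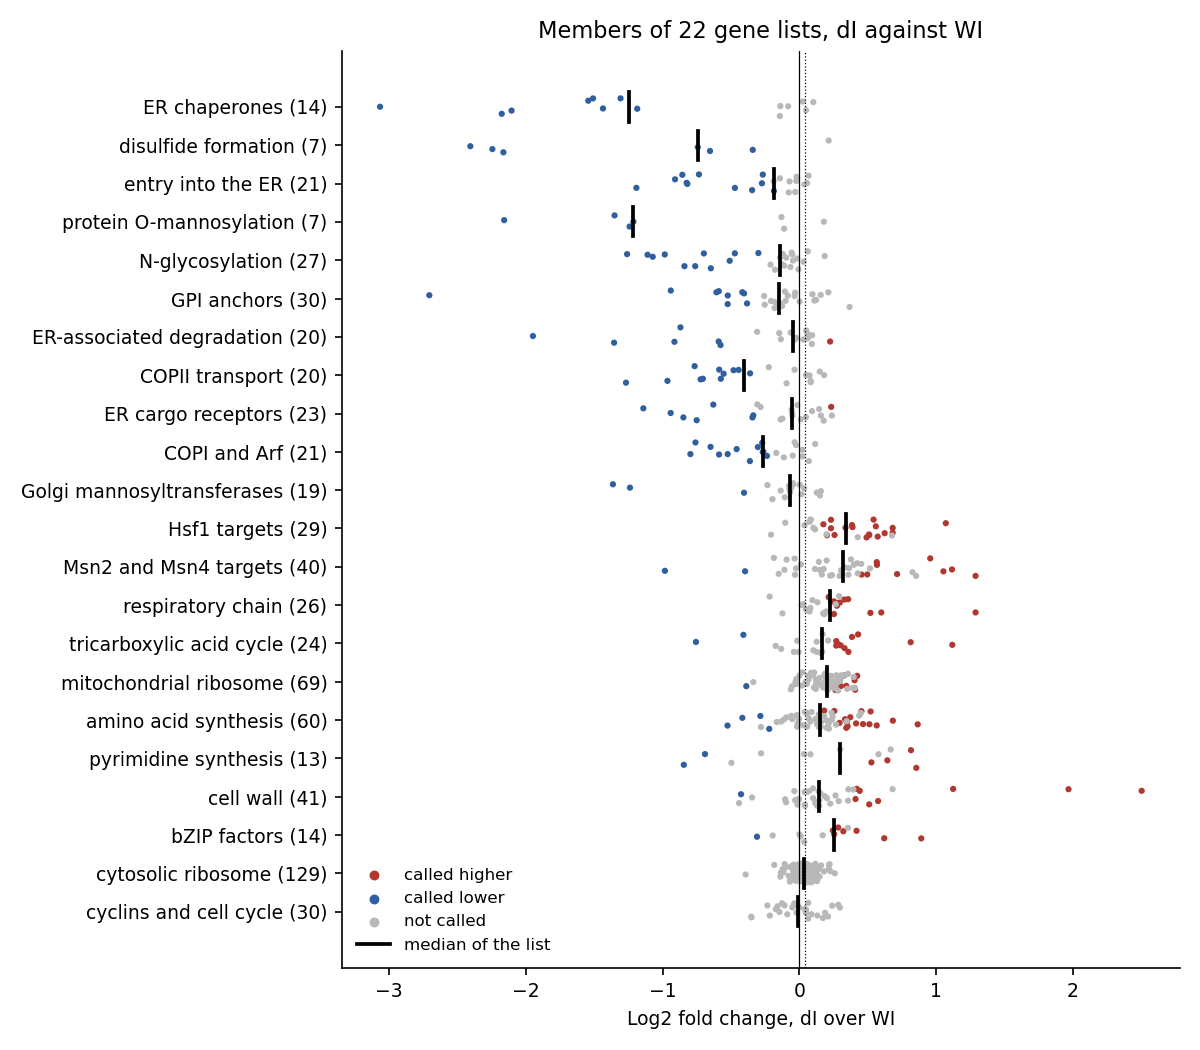
Log2 fold change of dI over WI for each member of 22 gene lists, with members called higher in red, called lower in blue and not called in grey, and a black bar at each median. The 11 lists of the secretory route at the top hold members called lower and at most 1 called higher, while the 29 Hsf1 targets hold 18 called higher and none lower. The dotted line marks the median of all genes, 0.04.

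Of 29 genes for cytosolic and mitochondrial chaperones, most of them targets of the heat shock factor Hsf1, 18 were called higher in dI and none lower, with a median of 0.34, and in 22 of the 29 the dI arrays lay above all WI arrays, against 27.2% of all genes. The steps were small. STI1, which links Hsp70 to Hsp90, had 10.83, 10.80 and 10.81 in dI, against 10.19, 10.21 and 10.18 in WI (0.62, SE 0.07, adjusted p = 1.95e-05). The mitochondrial Hsp40 gene MDJ1 had 0.57 (adjusted p = 0.000594), the mitochondrial disaggregase gene HSP78 0.54 (adjusted p = 0.000635) and the cytosolic Hsp40 gene SIS1 0.34 (adjusted p = 0.000805). The count was 11 without WI replicate 3. In the other vectors fewer members were called higher, 10 in dN against WN and 10 in dA against WA, but no member's change was called different between the vectors.

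In the list of Msn2 and Msn4 targets, the general stress response, 9 of 40 genes were higher (22.5%, against 9.47% of all genes) and 2 lower. The median was 0.32, and 22 were higher when dN replicate 3 was left out of the shared spread. SOL4, a lactonase gene of sugar phosphate metabolism, had 7.75, 7.91 and 7.57 in dI, against 6.78, 6.81 and 6.77 in WI (0.96, SE 0.11, adjusted p = 1.95e-05). CYC7, a cytochrome c isoform gene, had 7.66, 7.38 and 7.61 in dI, against 6.03, 6.38 and 6.38 in WI (1.29, SE 0.19, adjusted p = 0.000162). DDR2, a small stress protein gene, had 1.12 and DCS2, a regulator of mRNA cap breakdown, 0.71. With the empty vector the same list had a median of -0.28 in dN against WN, with none called higher and 10 lower. The difference between the changes was called positive in 5 of its members. In dA against WA its median was -0.06, with 5 called higher and 5 lower, and the difference was called positive in 2 members and negative in 1.

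Of 26 genes of the respiratory chain 12 were higher and none lower (median 0.22), and 6 were higher without WI replicate 1. After CYC7 the smallest p-values were those of GUT2, the mitochondrial glycerol phosphate dehydrogenase (0.60, adjusted p = 0.00142), QCR2, a subunit of complex III (0.27, adjusted p = 0.00497), and COX5B, a subunit isoform of cytochrome c oxidase (0.52, adjusted p = 0.00759). In the tricarboxylic acid cycle and its isozymes 10 of 24 were higher and 2 lower (median 0.17), with 5 higher without WI replicate 3 and 6 without dI replicate 3. MDH2, the cytosolic malate dehydrogenase, had 1.12 (SE 0.10, adjusted p = 1.09e-06) and KGD2, of the ketoglutarate dehydrogenase, 0.43. LSC2, a subunit of succinyl-CoA ligase, went the other way at -0.76 (adjusted p = 2.56e-06). None of the 16 ATP synthase genes was called by limma (4 at an unadjusted p under 0.05), with a median of 0.14. Of 69 genes of the mitochondrial ribosome 7 were higher (10.1%, near the 9.47% of all genes) and 1 lower (median 0.20). This count was the least steady of those given here, at 32 when dN replicate 3 was left out, 3 without WI replicate 1, dI replicate 1 or dI replicate 3, and 4 without WI replicate 3.

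The largest single rises did not belong to 1 group. NCA3, of the SUN family of cell wall proteins, had 8.35, 8.30 and 8.56 in dI, against 5.70, 5.82 and 5.72 in WI (2.65, SE 0.46, adjusted p = 0.000627). The SE was large because 1 of the dN arrays, which enter the shared spread, read 4.94 where the other dN arrays read 7.33 and 7.66. HPF1, a cell wall mannoprotein gene, had 8.61, 8.96 and 8.62 in dI, against 6.21, 6.18 and 6.30 in WI (2.50, SE 0.26, adjusted p = 3.67e-06). SFK1, which encodes a plasma membrane protein, had 1.41 (adjusted p = 2.79e-05), PUT4, the proline permease gene, 1.26 (adjusted p = 1.8e-05), and YRO2, a membrane protein gene induced by stress, 1.25 (adjusted p = 3.22e-06). YDL241W, of unknown function, had 1.16. The vitamin B6 genes SNZ1 and SNO1, which lie next to each other, had 1.27 and 1.78, with SNO1 near the background in dI and below it in WI, so that its fold is at least 1.02. Also near background were PUG1, a heme and protoporphyrin transporter gene, at least 1.62-fold higher, and SPG4, a stationary phase gene, at least 1.21-fold higher, while DAK2, a dihydroxyacetone kinase gene, was below it in both strains. SNO1 lost its call without WI replicate 1 (adjusted p = 0.0584). SNZ1 lost it without any array but dI replicate 2 (adjusted p 0.0548 to 0.115), and PUG1 without dI replicate 1, dI replicate 3, WI replicate 2 or WI replicate 3 (adjusted p 0.0506 to 0.0633).

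Cell wall genes as a list held 8 higher (19.5%, against 9.47% of all genes) and 1 lower of 41, with a median of 0.14. Beside HPF1, PIR3 and PIR1, wall proteins with internal repeats, had 1.97 (SE 0.59, adjusted p = 0.0279) and 0.58 (SE 0.10, adjusted p = 0.000842), and PST1, a GPI protein gene of the wall, 1.12 (SE 0.36, adjusted p = 0.0388). KNH1, of glucan synthesis, was the member called lower (-0.43). The PIR3 arrays read 9.63, 9.41 and 10.02 in dI, against 7.87, 7.66 and 7.62 in WI, so the strains did not overlap. Its call was lost without any array but dI replicate 2 (adjusted p 0.0612 to 0.0987), and that of PST1 without any 1 of the 6 (adjusted p 0.0507 to 0.139). The count of 8 fell to between 2 (without dI replicate 1 or WI replicate 3) and 4 (without dI replicate 3), with 3 without WI replicate 1, WI replicate 2 or dI replicate 2.

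Pyrimidine synthesis ran in both directions. URA3, which encodes orotidine phosphate decarboxylase and is the marker of the vector, had 9.97, 10.13 and 9.97 in dI, against 10.93, 10.86 and 10.81 in WI (-0.84, SE 0.09, adjusted p = 4.17e-06). The chromosomal ura3-52 allele and the plasmid copy are not told apart by the probe set. The 3 control probe sets along URA3 were lower in dI too, by -0.77, -0.84 and -0.91 from start to end, with no overlap. URA2, which carries out the opening steps, had 11.23, 11.25 and 11.24 in dI, against 10.41, 10.42 and 10.44 in WI (0.82, SE 0.07, adjusted p = 1.01e-06). URA8, a CTP synthase gene, had 9.16, 9.24 and 9.17 in dI, against 8.45, 8.36 and 8.19 in WI (0.85, SE 0.08, adjusted p = 1.43e-06). URA1 and URA4, the dihydroorotate dehydrogenase and dihydroorotase genes, had 0.64 and 0.53 and are named after their values were seen. URA6, the uridylate kinase gene, fell (-0.69, adjusted p = 3.33e-05). In all, 4 of 13 genes were higher and 2 lower.

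Amino acid synthesis had 16 of 60 genes higher and 4 lower, with a median of 0.15. The number lower was 1 or 2 without any 1 of the 6 arrays. ARG7 and ARG2, of arginine synthesis, had 0.68 (adjusted p = 1.51e-06) and 0.52 (adjusted p = 0.000197), CPA1, a subunit of the carbamoyl phosphate synthetase of that route, 0.86 (adjusted p = 0.000112), and ARO8, an aromatic aminotransferase gene, 0.47. In dN against WN 39 members were higher and 2 lower with a median of 0.39, and the difference between the changes was called in 2 members, both negative. In dA against WA 14 members were higher and 6 lower with a median of 0.18, and that difference was called in 4 members, all positive. Among the 14 bZIP transcription factor genes, the family of HAC1 without HAC1 itself, 7 were higher and 1 lower. YAP6 (0.62, adjusted p = 0.000785) and ARR1 (0.42, adjusted p = 0.00142) were steady, whereas CIN5 (0.89, adjusted p = 0.0155) lost its call without WI replicate 1 (adjusted p = 0.0799) or dI replicate 3 (adjusted p = 0.055). The count fell to 2 without WI replicate 1 or dI replicate 3 and to 4 without WI replicate 3.

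Few genes of growth were called. None of the 129 cytosolic ribosomal protein genes was called, with changes from -0.39 to 0.26 and a median of 0.04, the same as that of all genes. At an unadjusted p under 0.05 limma had 1 of these genes, and 1738 of all 5449. RPS22B, at -0.39, was called lower by limma when dN replicate 3 was left out (adjusted p = 0.0304). It was also called with dI and WI alone, median centring or array weights, and array weights called 4 members of the list higher. In dN against WN 39 of these ribosomal protein genes were higher and none lower, a count not repeated without dN replicate 3. In dA against WA 14 were higher and 1 lower. The difference between the changes was called in none against the empty vector. Against α-amylase it was called positive in 1 and negative in 1. Of 119 ribosome biogenesis genes 1 was lower, and of 30 cyclin and cell cycle genes none was called (2 at an unadjusted p under 0.05). When dN replicate 3 was left out of the limma fit, 4 of the 30 were called higher. The cyclin gene CLB2 was called lower in that fit (-0.35, adjusted p = 0.00322). Genes of oxidative stress defence were mixed, with 4 higher and 3 lower of 38 and a median of 0.0004. These shares were 10.5% higher and 7.89% lower, against 9.47% and 10.8% of all genes. The number higher was 2 without dI replicate 3 or WI replicate 3, and 7 when dN replicate 3 was left out. OYE2, an NADPH oxidoreductase gene, had 9.86, 9.81 and 9.72 in dI, against 10.87, 10.90 and 10.79 in WI (-1.06, SE 0.07, adjusted p = 2.57e-08). The glutaredoxin gene GRX3 and the peroxiredoxin gene TSA1 had -0.56 and -0.54, and SOD2, the mitochondrial superoxide dismutase gene, 0.38.

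The next genes had small p-values within their lists. Called higher and lower were 2 and 2 of 29 sulfur, 4 and 2 of 22 phosphate, and 4 and 5 of 30 nitrogen genes. The counts were 1 and 1 of 15 hexose transporter, 2 and 1 of 21 purine, and 2 and 1 of 21 glycolysis genes. Over all genes 9.47% were higher and 10.8% lower. The 4 phosphate genes became 2 without any 1 dI or WI array but dI replicate 3. Without dN replicate 3, 5 sulfur and 6 phosphate genes were lower. SUL2, a sulfate permease gene, had -1.34 (adjusted p = 5.63e-05), VTC3, of vacuolar polyphosphate synthesis, -1.26 (adjusted p = 2.98e-05), GDH2, the glutamate dehydrogenase that releases ammonium, -0.87 (adjusted p = 0.000859), and HXT2, a hexose transporter gene, -0.75 (adjusted p = 0.000452). INO2, an activator of phospholipid synthesis, had -0.64 (adjusted p = 3.88e-06) and 3 of its list of 17 were lower, or 5 when dN replicate 3 was left out. IMD2, of guanine nucleotide synthesis, had 0.78 (adjusted p = 2.47e-05), RGT2, a glucose sensor gene, 0.56 (adjusted p = 6.36e-05) and PDC5, a pyruvate decarboxylase isozyme gene, 0.66 (adjusted p = 0.000129). In the autophagy list ATG17, a scaffold gene, had -0.73 (adjusted p = 0.000239) and 2 of 26 genes were lower.

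The mating type of the labels was checked. The mean of the 7 MATa genes lay between 8.30 and 8.48 in dI and between 8.44 and 8.55 in WI, and that of the 4 MATα genes between 4.61 and 4.66 in dI and between 4.88 and 4.96 in WI. Within the α list MF(ALPHA)2 was below background in all 6 arrays, while STE3, SAG1 and MF(ALPHA)1 were above it in all 6. STE3, the receptor gene for a-factor, was lower in dI (-0.91, SE 0.24, adjusted p = 0.0124). Of the 7 MATa genes 2 were called lower (28.6%, against 10.8% of all genes), none higher, and 5 did not pass. The median of the MATa list was 0.12, where that of all genes was 0.04. The 2 were BAR1, the protease that cuts α-factor, which fell by 0.78 on the log2 scale (adjusted p = 7.76e-06), and the a-factor gene MFA1, by 0.50 (adjusted p = 0.00408). FIG1, a gene of the pheromone response, was called lower but was below background in both strains.

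The changes with IP were then set beside those with the other vectors, which share no array with them. In dN against WN 1170 genes were called (21.5%) and in dA against WA 1262 (23.2%). Of the 587 genes lower in dI, 437 were lower in dN against WN (74.4% of the dI list and 66.9% of the dN list) and 443 in dA against WA (75.5% and 59.9%). Of the 516 genes higher in dI, 179 were higher in dN against WN (34.7% and 34.6%) and 180 in dA against WA (34.9% and 34.4%). Beyond these shared calls, 88 genes lower and 238 higher in dI were called in neither of the other comparisons. That count compares calls, not the changes themselves, and the difference between the changes was tested next.

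**Figure D4:**
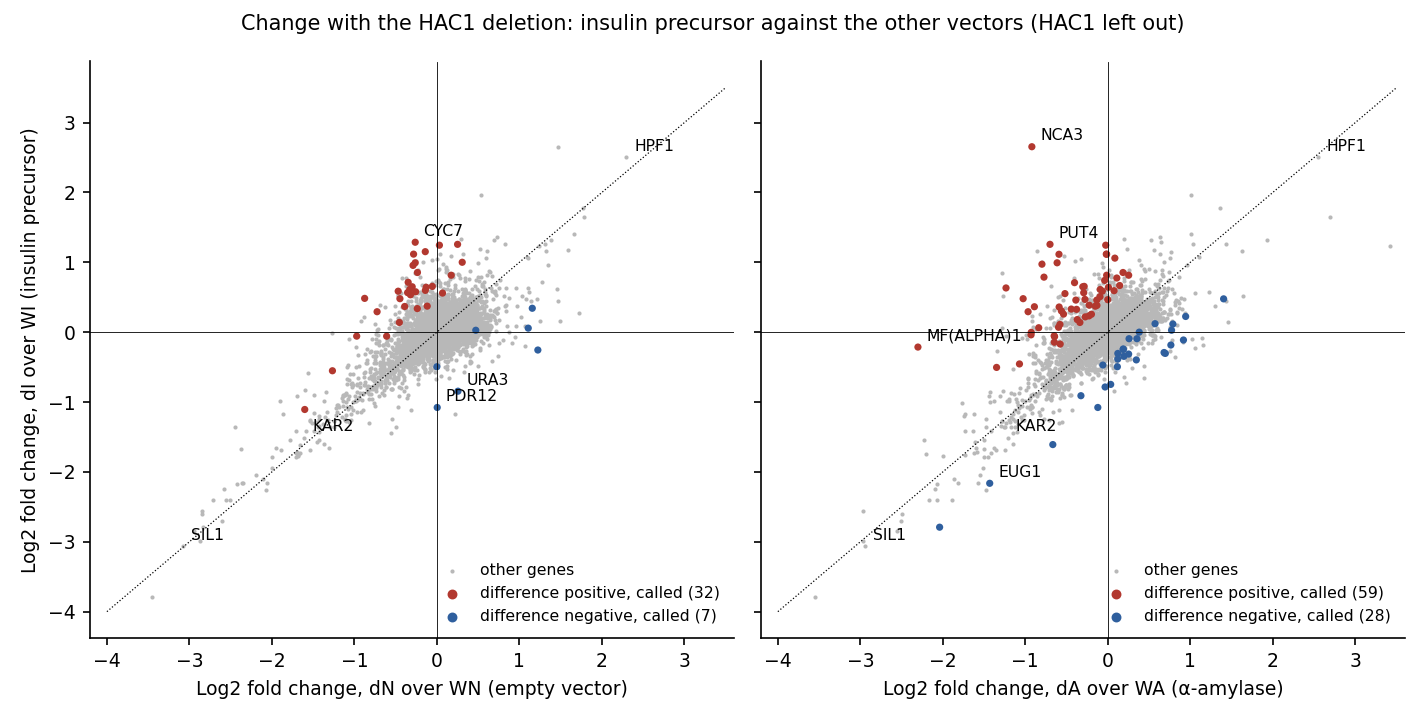
Log2 fold change of dI over WI (vertical) against that of dN over WN (left) and dA over WA (right), 1 point per gene without HAC1, with the line of equal change dotted. Genes whose 2 changes differed by an adjusted p under 0.05 are red where the difference was positive (32 and 59) and blue where it was negative (7 and 28), and genes of the ER such as SIL1 and KAR2 lie near the line.

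Against the empty vector, the change differed in 39 genes (0.716%), positive in 32 and negative in 7. MDH2 had a change of 1.12 in dI against WI and -0.28 in dN against WN, a difference of 1.40 (SE 0.14, adjusted p = 0.000153). Its log2 signal was 9.51, 9.56 and 9.44 in dI, against 8.31, 8.46 and 8.38 in WI, and 7.44, 7.54 and 7.26 in dN, against 7.48, 7.75 and 7.86 in WN. YRO2 changed by 1.25 with IP and by 0.03 with the empty vector (difference 1.21, adjusted p = 0.00527). The difference was 1.25 for SOL4 (adjusted p = 0.0015), 1.26 for DAL80, a nitrogen repressor gene below background in dI and WI, and 1.09 for URA8 (adjusted p = 0.000153). URA3 had the clearest negative one. Its change was -0.84 with IP and 0.26 with the empty vector, so that the difference was -1.10 (SE 0.12, adjusted p = 0.000318). CYC7 and IZH4, which encodes a membrane protein of the adiponectin receptor family, had 1.55 and 1.36. CYC7 passed the threshold in all but 3 of the fits that left out 1 array (without dI replicate 1, WN replicate 1 or WN replicate 3, adjusted p 0.0524 to 0.0571). IZH4 missed it in 4 of them (without dI replicate 1, WN replicate 1, WI replicate 2 or WI replicate 3, adjusted p 0.0538 to 0.063). The count of 39 was not steady. It was 79 without dN replicate 3, 112 without dN replicate 2, and 12 to 23 without any other single array of the 4 strains.

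Against α-amylase, 87 genes (1.6%) differed, 59 with a positive and 28 with a negative difference. NCA3 stood first, with a change of 2.65 with IP and -0.92 with α-amylase, a difference of 3.58 (SE 0.65, adjusted p = 0.00923). Its signal was 8.35, 8.30 and 8.56 in dI, against 5.70, 5.82 and 5.72 in WI, and 6.66, 6.82 and 6.79 in dA, against 7.89, 7.69 and 7.45 in WA. PUT4 differed by 1.96 (adjusted p = 0.000359), its change being 1.26 with IP and -0.70 with α-amylase. The maltose genes MAL32 and MAL11, the maltase and the permease, differed by 1.77 (adjusted p = 0.000773) and 1.56 (adjusted p = 0.00137), and both belong to families with near-identical copies, whose RNA could bind the same probes. In MAL32 the dI arrays had 6.82, 6.98 and 6.62, against 5.83, 5.82 and 5.85 in WI, whereas dA had 5.97, 6.09 and 6.07, against 6.52, 7.01 and 6.98 in WA. MF(ALPHA)1 did not pass in dI against WI (-0.21, adjusted p = 0.429) and had -2.30 in dA against WA, a difference of 2.09 (adjusted p = 0.000463). Genes with a negative difference between the 2 changes included YHB1, a flavohemoglobin gene (-1.001, adjusted p = 0.00966), COS12 (-0.97, adjusted p = 0.000773) and YNL058C (-0.93, adjusted p = 0.00563). MDH2, YRO2, URA8, URA2, PDC5, PUT4 and DAL80 had positive differences against both other vectors. In each of these genes the mean signal was higher in WA than in WI. For YRO2 the means were 9.23 in dI, 7.98 in WI, 9.12 in dA and 9.15 in WA. In the same order, those of URA8 were 9.19, 8.33, 9.09 and 8.91, and those of URA2 11.24, 10.42, 11.11 and 10.85. In YRO2, URA8 and URA2 the dA mean was thus near that of dI. The dA mean was further below dI in MDH2, DAL80, PDC5 (6.85 against 7.37) and PUT4 (4.49 against 5.76). PDR12, the weak acid pump gene, SAM1 and YLR179C had negative differences against both. The count of 87 was 361 when dN replicate 3 was left out of the shared spread, 48 without WA replicate 2 and 49 without dI replicate 3. It was 51 without dA replicate 2, 52 without WI replicate 2, 54 without WI replicate 1 or WI replicate 3, and 57 without dI replicate 1, dA replicate 1 or dA replicate 3.

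**Figure D5:**
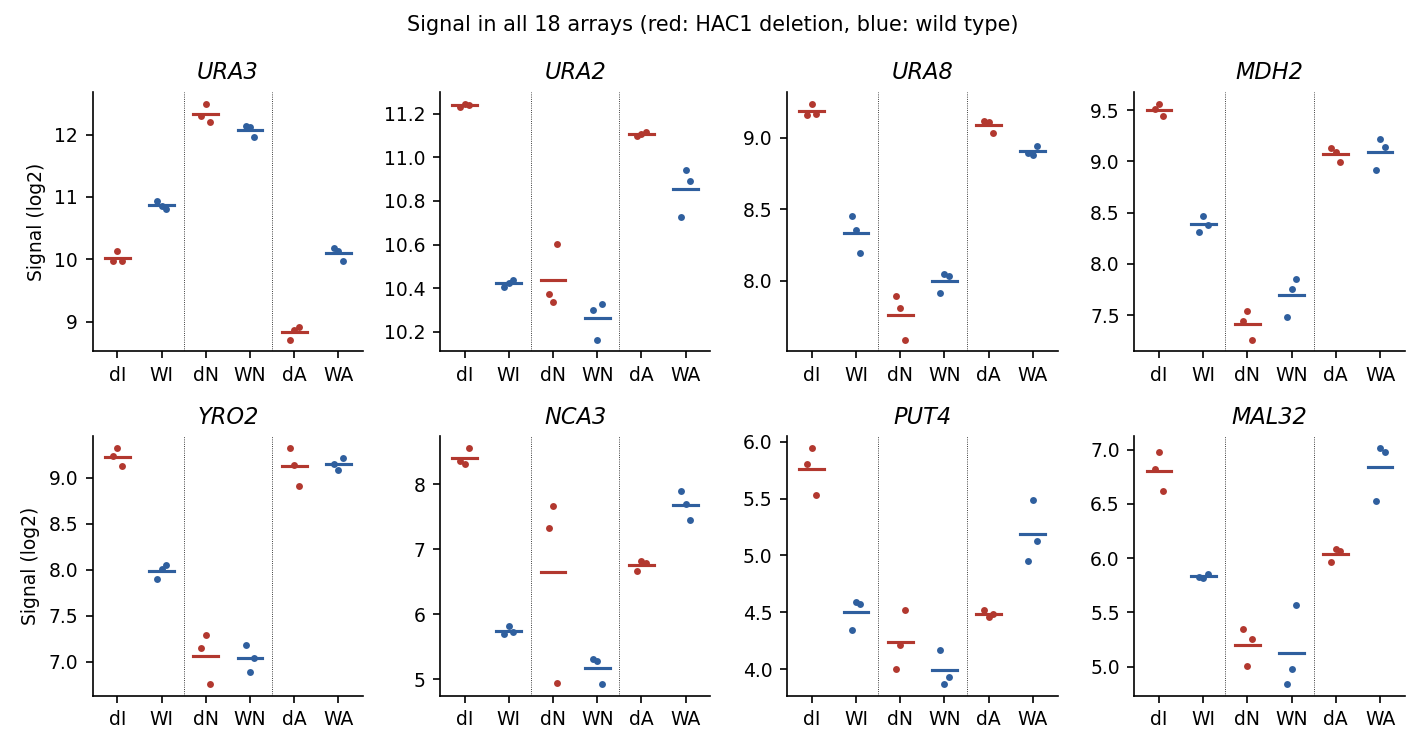
Log2 signal of 8 genes in all 18 arrays, 1 point per array and a bar at each strain mean, with deletion strains in red and their wild-type partners in blue to the right of each. In MDH2 and YRO2 the 3 dI arrays lie above the 3 WI arrays while the deletion and wild-type arrays overlap with the other vectors, and NCA3, PUT4 and MAL32 are higher in dI than in WI but lower in dA than in WA.

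The RNA was compared along transcripts by control probe sets at both ends of 7 genes. The signal at the end of the transcript minus that at its start differed between dI and WI by -0.10 to 0.25, and the arrays overlapped in all 7 genes. URA3, the marker of the vector, was left out of these 7, and there the same value differed by -0.14 in dI, with no overlap. The overlap in all 7 genes thus does not hold for every gene with such probe sets. Being lower in dI does not set URA3 apart, since WBP1, among the 7, was lower at both ends too. Signals of the rRNA control probe sets varied more. The mean of the 3 probe sets for 18S rRNA was 8.87, 8.37 and 9.55 in dI, against a highest value of 8.48 in WI, so that dI replicate 3 was the highest and the strains overlapped. Its part in the results was not tested, and the values without dI replicate 3 are given above where they change a call.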

How the data were processed

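Affymetrix arrays of the Yeast Genome 2.0 design measured RNA from 18 bioreactor cultures, with 1 array for each. The authors made the deposited log2 values by correcting background with RMA, using perfect-match probes alone, normalizing by qspline and summarising each probe set by median polish. The values were used as deposited. Since arrays were scaled to each other, a change in total mRNA per cell is not seen. Of 10928 probe sets, 5498 were paired with 5449 genes through the platform annotation and RefSeq. For 47 genes with several probe sets, the brightest was kept.

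In R 4.3.3, limma 3.58.1 fitted 1 mean for each strain to the 18 arrays, which left 12 residual degrees of freedom, and changes between vectors were compared as interaction contrasts. It was tested on simulated data with an equal spread in every strain, which does not cover the wider spread of the dN arrays. Where a strain was wholly below background, a fold is a lower bound. The number of arrays limits the precision. Arrays were grouped by title; a dN array has no number in its title, and the label of WN replicate 1 names another way of breaking the cells.

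Genes named were HAC1, URA3, IRE1, KAR2, PDI1, EUG1, MPD1, MPD2 and ERO1, the 15 highest and 15 lowest called changes without overlap, up to 4 members of a list by smallest adjusted p, up to 8 called genes a direction of each interaction, and the neighbours of HAC1. The comparison, rule and 45 lists were chosen with earlier results of these data known. Promoter motifs and protein ends were not analysed here. Alternatives are given in the closing section.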

Additional observations from a re-analysis of the deposited data

Results flagged for a closer look

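The change with the HAC1 deletion differed between vectors by an interaction test in 39 genes for IP against the empty vector and 87 for IP against α-amylase. Against the empty vector, named genes with a positive difference were CYC7 (1.55), MDH2 (1.40), IZH4 (1.36), DAK2 (1.29), DAL80 (1.26), SOL4 (1.25), YRO2 (1.21), URA8 (1.09), DCS2 (1.06), PUT4 (1.01), GPH1 (0.92), PHO92 (0.86), GUT2 (0.74), PDC5 (0.71) and URA2 (0.64). A negative difference was found in ENB1 (-1.48), URA3 (-1.10), PDR12 (-1.08), LYS20 (-1.05), ARG3 (-0.81), YLR179C (-0.49) and SAM1 (-0.44). In ENB1, PDR12, LYS20, ARG3, YLR179C and SAM1 the call was lost in 8 to 10 of 12 fits that left out 1 array, and URA3 kept it in all 12.

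Against α-amylase, the positive differences were in NCA3 (3.58), MF(ALPHA)1 (2.09), PUT4 (1.96), YLL066W-B (1.87), MAL32 (1.77), DDR2 (1.71), DAL80 (1.61), MAL11 (1.56), YRO2 (1.27), PRM1 (1.25), MDH2 (1.14), PDC5 (0.94), MFA1 (0.84), URA8 (0.67), IMD2 (0.67), MEP1 (0.62), ECM22 (0.60), URA2 (0.56), RPL15B (0.55) and GPD2 (0.41). The negative ones were in DSF1 (-1.03), YHB1 (-1.0), COS12 (-0.97), PDR12 (-0.96), RPS14B (-0.95), YER078W-A (-0.94), YNL058C (-0.93), HXT2 (-0.78), FCY21 (-0.75), SAM1 (-0.75), GSY1 (-0.74), EUG1 (-0.73), YLR179C (-0.61) and LAP3 (-0.43). DAL80, YLL066W-B, DSF1 and PRM1 were below background in dI and WI, and FCY21 in all 3 dI arrays, so these sizes rest on values near the floor. The calls of DDR2, RPS14B, HXT2, PDR12 and YER078W-A were lost in 7 to 12 of 13 fits that left out 1 array.

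Signal outside the tested genes also separated the strains. Of 5430 such probe sets 36 were called in dI against WI. The reporter control was higher in dI by 10.43 on the log2 scale. Of 2 probe sets with no gene name, picked after their values were seen, 1 was higher in dI by 2.46, with 7.69, 8.05 and 7.77 in dI, against 5.41, 5.33 and 5.38 in WI, and the other by 2.09. No gene is paired with them in the tables used, and groups of 3 arrays are too small for a test of single outlying arrays.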

How the results depend on the processing

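Of 218 named genes 173 were called, and 134 of these kept their call and direction under every alternative other than a stricter threshold. Array quality weights gave 2235 genes called in dI against WI (1242 higher, 993 lower), 345 in the interaction with the empty vector and 890 in that with α-amylase. A threshold of 0.01 gave 604 (222 higher, 382 lower), and a 2-fold minimum 119 (24 higher, 95 lower). A fit of dI and WI alone gave 848 higher, and fits of the 4 strains compared gave 16 and 327 genes in the interactions with the empty vector and α-amylase. With 1 array left out, counts ranged from 742 to 1634 for all calls, 299 to 888 for higher, 443 to 746 for lower, 12 to 112 for the interaction with the empty vector and 48 to 361 for that with α-amylase. The highest of these, other than 112 (without dN replicate 2), came without dN replicate 3. Same-numbered dI and WI arrays did not deviate together (correlation -0.12 to 0.03, against -0.17 to 0.22 for other numbers), so no pairing by number was seen. With 3 arrays in each strain these correlations cannot exclude one. With the replicate number as a block, calls were 1161 in dI against WI, 22 in the interaction with the empty vector and 88 in that with α-amylase. Among genes that were not called, the change of LYS20 ranged from -0.0311 (without dI replicate 3) to 0.132 with 1 array left out, and that of SAM1 from -0.0108 (without dI replicate 1) to 0.0956, with -0.0015 without dI replicate 2 and -0.0025 without WI replicate 3. Counts under the other alternatives (every probe set, dim genes left out, quantile normalization, median centring, an intensity trend) stayed within 1.5-fold, and chromosome medians moved by less than their spread. The window for promoter motifs was not run. Genes below background in a strain have only a bound there.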

Other observations

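Further lists are set here beside all genes, of which 9.47% were called higher and 10.8% lower in dI against WI. The shares higher and lower were 4.76% and 23.8% for β-oxidation, 9.38% and 6.25% for iron, and 20.0% and 8.0% for ergosterol synthesis. They were 23.8% and 9.52% for trehalose and glycogen, and 13.3% and 16.7% for nitrogen genes. Of 21 genes of peroxisomal β-oxidation 5 were lower and 1 was higher, with a median of -0.11. In dA against WA 12 were lower, and in dN against WN 3 were lower and 1 was higher. The 5 were led by ANT1, the peroxisomal ATP carrier gene (-0.38, adjusted p = 0.000549 by limma), and PIP2, an activator of the oleate response (-0.37, adjusted p = 0.00635), with POX1, the acyl-CoA oxidase gene, at -1.01 (adjusted p = 0.0369). Their number was 2 or 3 without any array but WI replicate 1.

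In the iron regulon 3 of 32 genes were higher and 2 lower. In dN against WN 11 were higher and none lower, and in dA against WA none was higher and 2 were lower. Against the empty vector the difference between the changes was called for 1 member, the siderophore transporter gene ENB1. Against α-amylase it was called for 1 member. Without dN replicate 3 the counts in dI against WI were 5 higher and 5 lower. In ergosterol synthesis 5 of 25 genes were higher and 2 lower, among them the regulator genes UPC2 (0.50) and ECM22 (0.51) and the reductase gene ERG27 (-0.46). There were 3 higher without WI replicate 2 and 4 lower without dN replicate 3. Trehalose and glycogen genes were higher in 5 of 21 and lower in 2, with GDB1, the glycogen debranching enzyme gene, at 0.45 and GPH1, the glycogen phosphorylase gene, at 0.57. The number higher was 10 when dN replicate 3 was left out and 2 without dI replicate 3 or WI replicate 3. Among 30 nitrogen genes 4 were higher and 5 lower, including the ammonium permease genes MEP1 (-0.45) and MEP3 (-0.67). The genes in these paragraphs are named after their values were seen.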
